A study of Homo sapiens with 18 samples.

Results

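The effect of calcitonin gene-related peptide (CGRP) on glucose-starved tumour cells was read from 6 RNA-sequencing libraries of a series of 18. They were chosen by their labels: the 3 libraries of Cal27 cells given 10 nM recombinant human CGRP in glucose-deprived medium and the 3 given control medium in the same glucose-deprived medium. Cal27 is an established line from a squamous cell carcinoma of the human tongue, so every group shares the tumour's own genotype, and all cultures were held in their medium for 24 hours. The other 12 libraries repeat the pair in DMEM rich in glucose and in the same DMEM plus 2-deoxyglucose (2-DG) at 5 mM, a sugar that cells take up but cannot burn. The samples carry the codes TG and capTG, which the series text spells out as CGRP and control medium. The growth protocol names the additions no further than as different CM, so the peptide and anything else that may have differed between such media cannot be told apart. The series text calls the 3 libraries of each group independent biological repetitions.

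CGRP is a peptide that sensory nerve endings release. Its receptor is built from CALCRL, a receptor of the G protein-coupled class, and the accessory protein RAMP1, which makes CALCRL prefer CGRP. Binding raises cyclic AMP (cAMP), which activates protein kinase A and, through the factor CREB and its CRTC coactivators, genes with a cAMP response element. In epithelial and immune cells cAMP is known for changing the output of cytokine genes and of growth factor signalling.

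The 6 libraries held 28.63M to 32.66M counts on 24933 to 25877 genes. CGRP library 2 stood apart from its mates. On the second principal component, which carried 7.39% of the variance of all 18 libraries, it lay at 59.3 while CGRP 1 and 3 lay at -12.5 and -13.0. Genes of ribosomal proteins took 9.81% of its counts, against 6.37% and 6.34% in CGRP 1 and 3 and 6.68% to 6.75% in the controls. Its departure from its mates followed transcript length, with a median log2 difference of 0.32 for genes whose longest transcript is under 1 kb and of -0.58 for those over 8 kb, while no control departed by more than 0.02 in any length class. CGRP 1 and 3, in contrast, differed from each other by a chi-square of 1.44 per gene, and the control pairs by 1.59 to 2.05. One further library outside the comparison, 2-DG control 2, lay at 34.6 on that component.

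**Figure D1:**
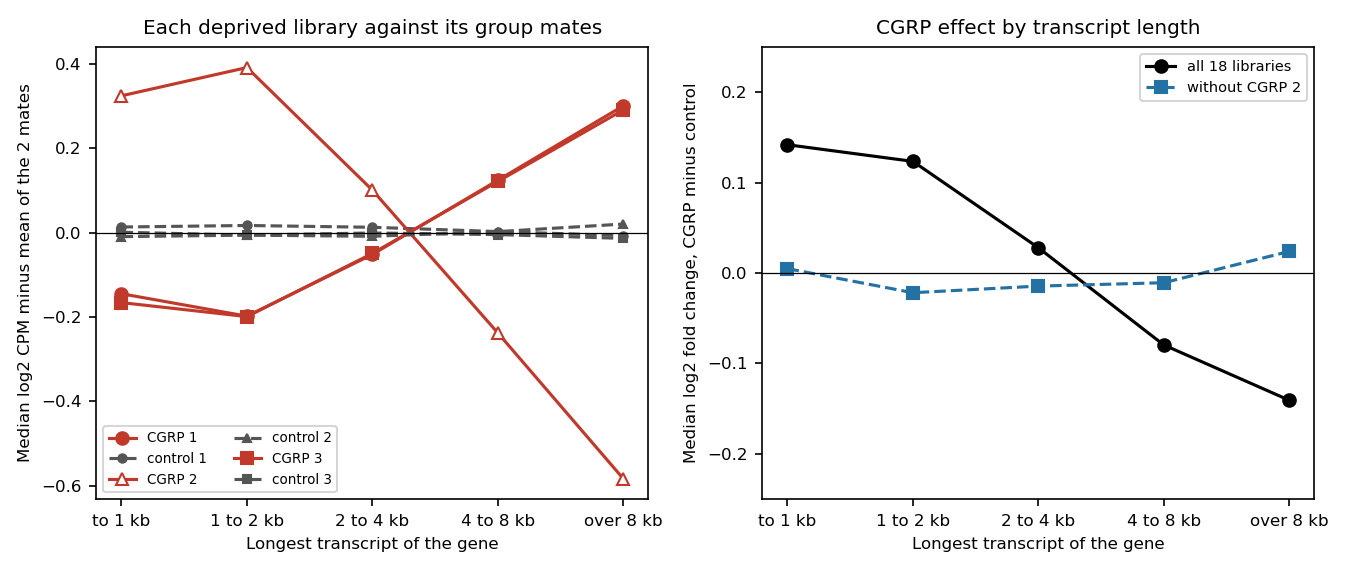
Left, the median log2 difference of each deprived library from the other libraries of its group, by the length of a gene's longest transcript. Right, the median log2 fold change of CGRP against control by the same length classes, with all 18 libraries and without CGRP 2. CGRP 2 runs from 0.32 in the shortest class to -0.58 in the longest, and leaving it out moves the median fold change of the longest class from -0.14 to 0.02.

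Levels are given as CPM, a gene's counts relative to the TMM-scaled total of its library, in the order of libraries 1, 2 and 3, and a difference is a log2 fold change of CGRP minus control, with its standard error (SE). A gene passed at an adjusted p under 0.05 in edgeR's quasi-likelihood F test, fitted to all 18 libraries and adjusted over the 18159 genes tested. With CGRP 2354 genes passed, 13% of those tested. Of these 1159 rose (6.38%) and 1195 fell (6.58%), with median changes of 0.53 and -0.31. Changes of at least 2-fold were found for 199 genes that rose and 42 that fell, and 139 and 27 of these had an average log2 CPM under 1. In 2300 of the 2354 genes the 3 CGRP libraries lay wholly on one side of the 3 controls, as they did above the controls for 13.9% and below them for 16.3% of all tested genes.

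A pair of refits bears on every count that follows. Without CGRP 2, 2726 of 18524 genes passed, and 1800 of the 2354 genes were among them in the same direction. Leaving out any single control left 1282 to 1382 calls, and leaving out CGRP 1 or CGRP 3 left 2281 and 2256. A fit of the 6 libraries alone, whose spread then rests on 4 residual degrees of freedom and includes CGRP 2, left 141 genes, 93 up and 48 down, all of which passed in both other fits (2791 genes had an unadjusted p under 0.05). The same fit without CGRP 2, that is of 5 libraries, called 6215 genes, 2945 up and 3270 down. The common biological coefficient of variation of the 6-library fit was 13.3%, against 5.94% in the fit of 17 libraries that left CGRP 2 out.

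**Figure D2:**
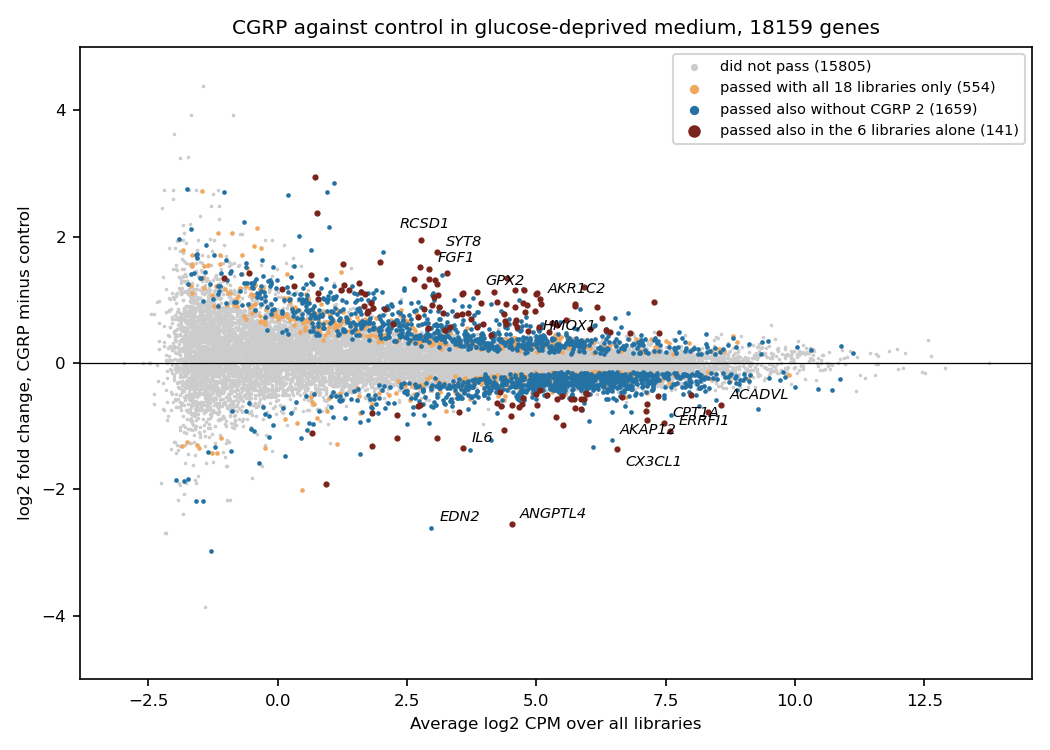
Log2 fold change of CGRP against control in glucose-deprived medium (vertical) against the average log2 CPM of each of 18159 genes (horizontal). Colours mark the 554 genes that passed with all 18 libraries only, the 1659 that passed also without CGRP 2 but not in the 6 libraries alone, and the 141 that passed in all 3 fits.

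Neither gene of the receptor passed the test. CALCRL stood at 2.14, 2.14 and 2.24 CPM in the controls and at 3.36, 2.47 and 2.54 CPM with CGRP. That is a difference of 0.36 ± 0.22 (SE; adjusted p = 0.31), although the groups did not overlap. RAMP1 stood at 6.72, 6.51 and 7.45 CPM in the controls and 6.64, 12.1 and 6.96 CPM with CGRP. Only CGRP 2 was high, and the difference was 0.31 ± 0.20 with it and -0.01 without it. RAMP2 and RAMP3, the accessory proteins that turn CALCRL towards adrenomedullin, had 0 counts in all 6 libraries, and CALCR, the calcitonin receptor, had 6 to 10 counts in each.

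Of 29 tested genes of the receptor and cAMP pathway, 2 rose and 3 fell (3 and 3 without CGRP 2, none in the 6 libraries alone). Those shares were 6.90% and 10.3%, against 6.38% and 6.58% of all tested genes. ADCY3, an adenylyl cyclase that makes cAMP, read 86.4, 88.4 and 85.2 CPM in the controls and 70.6, 58.0 and 67.0 CPM with CGRP, a fall of 0.41 ± 0.06 on the log2 scale (adjusted p = 3.7e-04). The CREB coactivator CRTC2 fell from 35.7 ± 0.765 (SD, n = 3) to 30.6 ± 0.0356 CPM, by 0.22 ± 0.05, a call lost when either control 1 or control 3 is left out. ARRB1 and ARRB2, the arrestins that switch off such receptors, rose by 0.36 ± 0.08 and 0.38 ± 0.09.

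Among 18 genes known to be induced by cAMP, 1 rose and 4 fell, a share of 22.2% falling (the same counts without CGRP 2). PPARGC1A, a coactivator of mitochondrial genes and a textbook target of CREB, rose from 0.296, 0.310 and 0.238 to 0.565, 0.540 and 0.748 CPM (1.13 ± 0.27, adjusted p = 0.012), and its call was lost without control 3 or without CGRP 3. The 4 that fell were INHBA, AREG, EREG and ATF3, which are described with their own groups. CREM (0.08 ± 0.08), PDE4D (-0.33 ± 0.11, adjusted p = 0.051) and NR4A1 (-0.35 ± 0.13, adjusted p = 0.078), which cAMP often induces within hours, did not pass.

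Among inflammatory cytokine and chemokine genes, 10 of 26 tested fell and 0 rose, with a median of -0.21 over the list against 0.01 over all genes. The same 10 passed without CGRP 2, where the list's median was -0.39, and 6 of them passed in the 6 libraries alone. CX3CL1 (ENSG00000006210), a chemokine that also tethers leukocytes at the cell surface, stood at 99.4, 111 and 105 CPM in the controls and 42.1, 40.1 and 40.6 CPM with CGRP. No CGRP library came near a control, and the difference was -1.36 ± 0.05 (adjusted p = 1.4e-10). IL6 (ENSG00000136244), the secreted signal for STAT3, fell from 41.0, 37.4 and 37.4 to 14.6, 17.7 and 13.3 CPM (-1.35 ± 0.10, adjusted p = 1.6e-06). IL1A (ENSG00000115008), an alarm cytokine of epithelium, fell from 321, 320.1 and 315 to 186, 182 and 193 CPM (-0.77 ± 0.04, adjusted p = 2.9e-08). LIF (ENSG00000128342), a relative of IL6, went from 77.9, 84.9 and 77.5 to 50.8, 42.2 and 51.8 CPM (-0.73 ± 0.07, adjusted p = 8.7e-06). For these genes the lowest control exceeded the highest CGRP library, CGRP 2 included.

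The other 6 that fell, named after their values were seen, were CSF2, IL1B and 4 neutrophil-attracting chemokines. CSF2, which drives granulocytes and macrophages, fell from 14.0, 14.3 and 13.1 to 6.11, 7.36 and 6.34 CPM (-1.06 ± 0.11). IL1B fell by 0.51 ± 0.06 on the log2 scale. CXCL1, CXCL2 and CXCL3 fell by 0.52, 0.55 and 0.63, and by more without CGRP 2 (0.68, 0.74 and 0.76), since CGRP 2 lay highest of the CGRP libraries in all 3. CXCL8 was the most scattered, with 87.2, 46.5 and 60.1 CPM in the controls and 39.1, 28.2 and 42.1 CPM with CGRP (-0.82 ± 0.17, adjusted p = 0.0043).

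**Figure D3:**
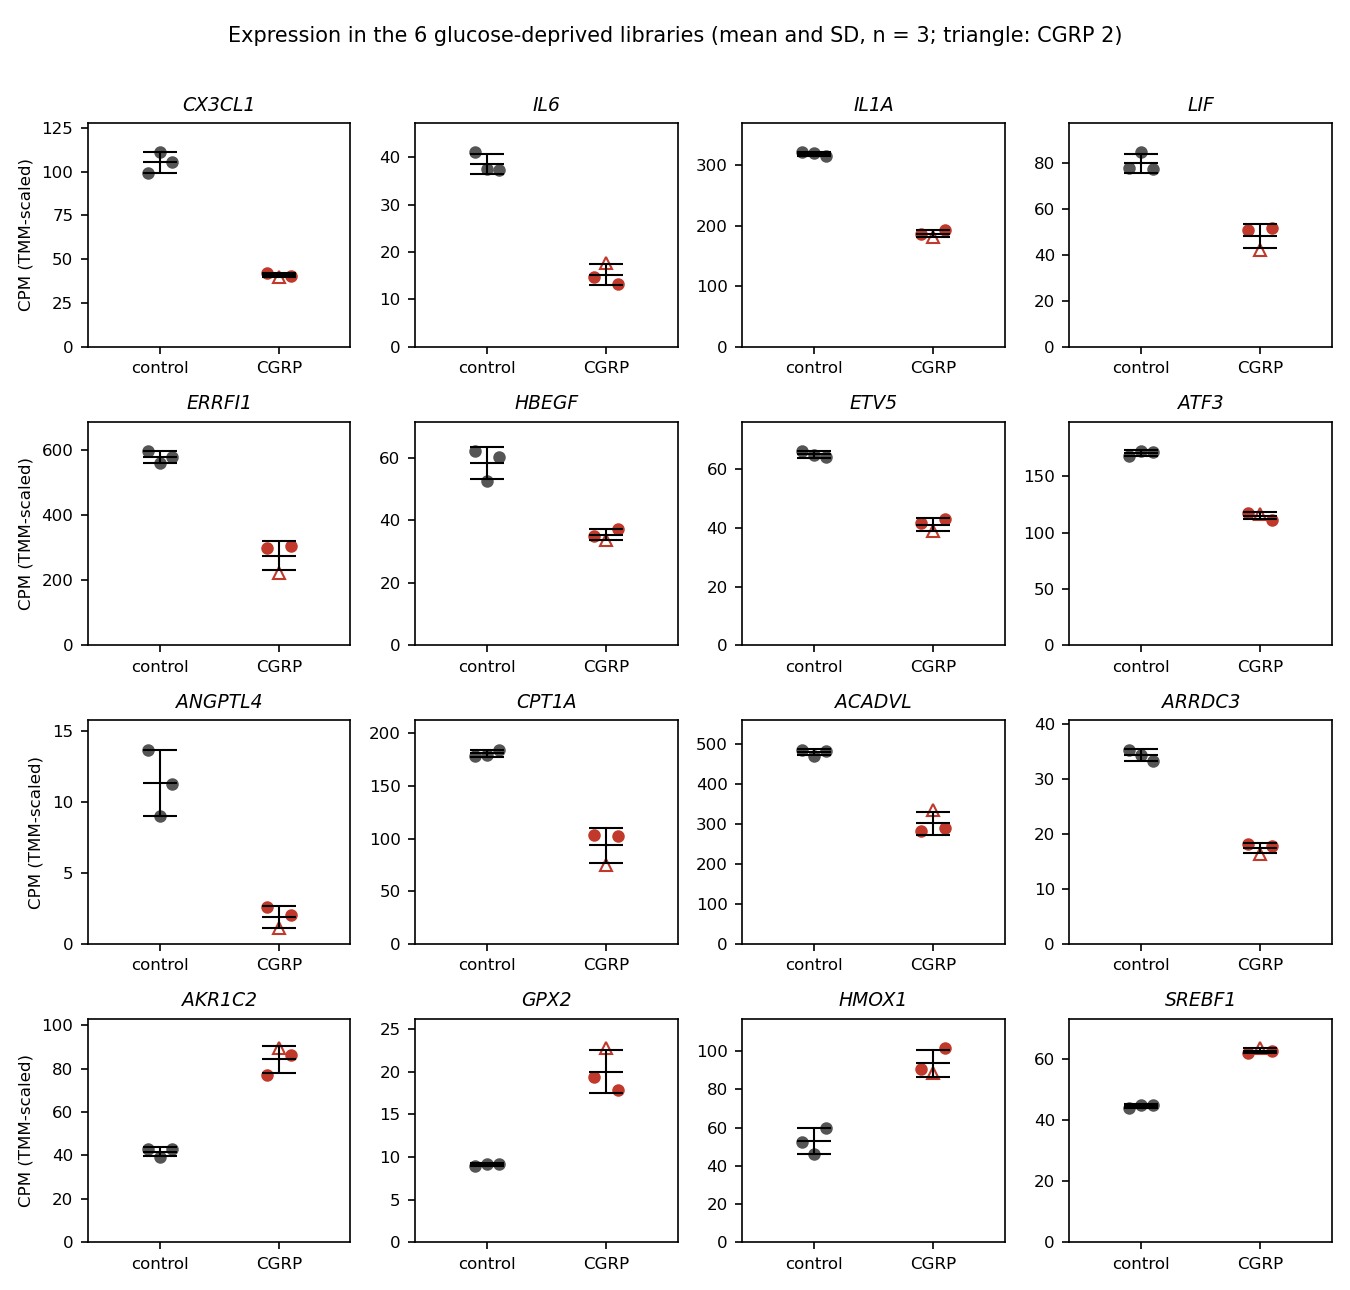
CPM of 16 genes in the 3 control and 3 CGRP libraries of glucose-deprived medium, 1 point per library with the mean and SD of each group; the triangle is CGRP 2, and each panel has its own axis from 0. The CGRP libraries lie wholly below the controls in 12 panels and wholly above them in 4, those of AKR1C2, GPX2, HMOX1 and SREBF1.

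Many of these genes carry sites for NF-kB, the factor that inflammatory receptors switch on, so the promoter windows of the fallen genes were searched on both strands for the kappaB consensus in its degenerate form of 10 letters. Windows ran from 250 bases before to 50 after the RefSeq start (GRCh38.p14), and 8 of the 10 genes had one. The consensus occurred in 4 of the 8, CXCL1, CXCL2, CXCL3 and IL6, and in 10.8% of all 27305 windows. The stretches with their matches, in capitals and read along the gene's strand, show how alike the 3 CXCL promoters are, where the capitals cover 2 overlapping matches:
CXCL1, chr4:73869299-73869339, plus strand: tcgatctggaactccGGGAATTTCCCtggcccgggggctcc
CXCL2, chr4:74099248-74099288, minus strand: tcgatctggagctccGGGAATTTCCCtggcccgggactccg
CXCL3, chr4:74038743-74038783, minus strand: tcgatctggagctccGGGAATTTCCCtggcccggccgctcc
IL6, chr7:22727112-22727151, plus strand: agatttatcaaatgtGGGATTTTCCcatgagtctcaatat
All 4 stretches lie upstream of the start. A match is a run of letters in the reference and was not tested for binding in these cells. Other motifs were searched for in the same 8 windows. The cAMP response half-site, TGACG, occurred in 5 (25% of all windows) and the AP-1 motif, TGANTCA, in 2 (7.76%). The antioxidant response element core, TGACNNNGC, occurred in 1 (13.6%). The full cAMP response element, TGACGTCA, and the E-box, CACGTG, occurred in 0 (1.98% and 7.43%).

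Of 21 tested genes of NF-kB subunits and their feedback, 7 fell and 1 rose, the same counts as without CGRP 2; 4 fell when any control was left out, and none passed in the 6 libraries alone. NFKB2, a precursor of the p52 subunit, read 94.6, 99.2 and 96.4 CPM in the controls and 80.2, 84.2 and 80.9 CPM with CGRP (-0.24 ± 0.04, adjusted p = 0.0013). TRAF1, an adaptor of TNF receptors that NF-kB induces, fell by 0.45 ± 0.06 and NFKB1, the p105 precursor, by 0.37 ± 0.08. TNFAIP3, the A20 brake on NF-kB, fell from 134, 119.9 and 123 to 99.7, 67.8 and 97.1 CPM. The gene that rose was TNFAIP2 (0.31 ± 0.08), named after its values were seen, whose CGRP 2 value lay among the controls. Of 18 cytokine receptor genes 4 rose and 2 fell (4 and 3 without CGRP 2). TNFRSF21, a death receptor, fell from 177, 180.2 and 173 to 109.5, 91.1 and 113 CPM (-0.76 ± 0.07). IL20RB, a receptor chain for the IL20 group, rose from 48.1, 51.2 and 51.8 to 67.1, 80 and 66.9 CPM (0.50 ± 0.08).

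Ligands of the EGF receptor and feedback genes of the ERK kinase cascade had the highest share of falls of any list tested: 15 of 22 fell (68.2%) and 1 rose, with a median of -0.41. Without CGRP 2, 14 fell and the median was -0.34, and 4 fell in the 6 libraries alone. ERRFI1 (ENSG00000116285), a feedback inhibitor that binds the EGF receptor, fell from 598, 562 and 580.0 to 298, 224 and 305 CPM (-1.07 ± 0.09, adjusted p = 3.4e-06). Of the ligands, HBEGF read 62.2, 52.5 and 60.2 CPM in the controls and 35.2, 33.8 and 37.4 CPM with CGRP (-0.72 ± 0.08, adjusted p = 2.5e-05). Amphiregulin, AREG, fell from 196, 190.0 and 180.3 to 99.8, 142 and 95.5 CPM (-0.75 ± 0.12), with CGRP 2 nearest to the controls, and by 0.94 without that library. EREG and TGFA, the other ligands that passed, named after their values were seen, fell by 0.49 ± 0.12 and 0.37 ± 0.08.

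ETV4 and ETV5, transcription factors whose mRNA follows ERK activity, fell by 0.77 ± 0.09 and 0.66 ± 0.06. ETV5 read 66.2, 64.7 and 64.1 CPM in the controls and 41.5, 38.8 and 43.1 CPM with CGRP. SPRY1, SPRY4 and SPRED1, which damp signalling below growth factor receptors, and the ERK phosphatases DUSP5 and DUSP6 also fell, by 0.70, 0.90, 0.34, 0.42 and 0.43. DUSP4, another phosphatase of the family, went the other way, from 31.4, 31.1 and 34.4 to 50.3, 40 and 52.4 CPM (0.56 ± 0.09, adjusted p = 7.8e-04). The genes of this paragraph other than ETV4 and ETV5 were named after their values were seen.

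AP-1 genes, which lie downstream of the same kinases, fell in 5 of 11 cases and rose in none, with and without CGRP 2. ATF3 (ENSG00000162772), a stress-induced partner of JUN, dropped from 168, 173 and 172 to 117, 116 and 112 CPM (-0.57 ± 0.05, adjusted p = 5.7e-06) and was the 1 that passed in the 6 libraries alone. MAFF fell by 0.43 ± 0.05, JUN by 0.30 ± 0.05, MAFK by 0.25 ± 0.05 and FOSL1, named after its values were seen, by 0.48 ± 0.09. The other 6 genes tested did not pass.

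The full cAMP response element, TGACGTCA, was searched for in the promoter windows of genes that fell in the EGF, AP-1 and cAMP-inducible lists. A window was held by 11 of 15 fallen EGF genes, 3 of 5 AP-1 genes and 4 of 4 cAMP-inducible genes. The element was in 2 genes, AREG and MAFF, and in 1.98% of all windows. That is 1 window in each list, since AREG is in both the EGF and the cAMP-inducible list. The AP-1 motif was in 0 of the 11 windows of the EGF list. The full element is shown in capitals, and neither binding to it nor a part of cAMP in these falls was tested:
AREG, chr4:74445056-74445093, plus strand: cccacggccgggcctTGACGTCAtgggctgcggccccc
MAFF, chr22:38201925-38201962, plus strand: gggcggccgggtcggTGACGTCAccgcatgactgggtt

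Targets of NRF2, the factor that answers oxidants and electrophiles, rose more often than they fell. Of 37 tested 12 rose (32.4%) and 1 fell, with a median of 0.19. Without CGRP 2 the counts were 15 and 2, and 6 rose in the 6 libraries alone. AKR1C2 (ENSG00000151632), an aldo-keto reductase, read 43.1, 39.4 and 42.9 CPM in the controls and 77.2, 89.4 and 86.0 CPM with CGRP (1.01 ± 0.08, adjusted p = 2.7e-06). GPX2 (ENSG00000176153), a glutathione peroxidase of epithelium, rose from 8.93, 9.24 and 9.18 to 19.4, 22.8 and 17.9 CPM (1.13 ± 0.10, adjusted p = 3.5e-06). HMOX1 (ENSG00000100292), which breaks down haem, rose from 52.5, 46.2 and 59.8 to 90.6, 88.7 and 102 CPM (0.83 ± 0.08, adjusted p = 8.8e-06). ALDH3A1 (ENSG00000108602), an aldehyde dehydrogenase, rose from 14.4, 14.2 and 15.4 to 25.3, 30.3 and 27.6 CPM (0.92 ± 0.08, adjusted p = 3.1e-06). In these 4 genes every CGRP library exceeded every control.

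AKR1C1 (0.81 ± 0.09) and AKR1C3 (1.26 ± 0.14) rose with AKR1C2, but the 3 genes are near copies and reads may have been split among them. GCLM, a subunit of the enzyme that starts glutathione synthesis, rose by 0.48 ± 0.07, and NQO1, a quinone reductase, by 0.33 ± 0.09. TXNRD1, thioredoxin reductase, read 897, 839 and 896 CPM in the controls and 1133, 859 and 1181 CPM with CGRP: it did not pass with CGRP 2 (0.27 ± 0.09, adjusted p = 0.063) and passed without it (0.41, adjusted p = 6.5e-05). ABCC3, an efflux pump, was the member that fell (-0.53 ± 0.11). These 6 genes were named after their values were seen.

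The core of the antioxidant response element, TGACNNNGC, was found in 2 of the 10 promoter windows of the NRF2 targets that rose, in 6 of 17 of those that did not pass, and in 13.6% of all windows. The 2 were GPX2 and GCLM, whose stretches carry it on the opposite strand, so that the capitals read as its reverse complement:
GPX2, chr14:64942844-64942882, minus strand: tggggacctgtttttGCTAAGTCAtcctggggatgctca
GCLM, chr1:93909441-93909479, minus strand: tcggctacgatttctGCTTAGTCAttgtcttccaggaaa

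Of 15 tested genes of fatty acid use 8 fell (53.3%) and 0 rose, with a median of -0.20, against 7 and -0.24 without CGRP 2 and 5 falls without control 2. ANGPTL4 (ENSG00000167772), a secreted inhibitor of lipoprotein lipase and a target of PPAR factors, read 13.7, 9.0 and 11.2 CPM in the controls and 2.58, 1.08 and 2.05 CPM with CGRP (-2.55 ± 0.22, adjusted p = 4.3e-06). CPT1A (ENSG00000110090), which admits long-chain fatty acids to mitochondria, fell from 179, 179.9 and 185 to 103, 74.6 and 103 CPM (-0.95 ± 0.10). ACADVL (ENSG00000072778), which begins the oxidation of very long chains, fell from 486, 471 and 483 to 282, 335 and 289 CPM (-0.67 ± 0.07). These 3 passed in the 6 libraries alone. ACSL3, which activates fatty acids, fell by 0.36 ± 0.06, and HADHB, a subunit of the mitochondrial trifunctional protein named after its values were seen, by 0.38 ± 0.07.

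Of 8 genes controlled by the glucose-sensing factor MondoA, 4 fell (3 without CGRP 2) and 0 rose. TXNIP, its best known target and a brake on glucose uptake, was low in the starved cells, at 13.2, 13.3 and 13.7 CPM in the controls against a mean of 574 CPM in the high-glucose control, and lower still with CGRP at 10.4, 10.4 and 11.1 CPM (-0.34 ± 0.07, adjusted p = 0.0042). ARRDC3 (ENSG00000113369), an arrestin-like adaptor, fell from 35.4, 34.4 and 33.4 to 18.2, 16.3 and 17.8 CPM (-0.98 ± 0.08, adjusted p = 2.7e-06). KLF10 fell by 0.56 ± 0.05. ARRDC4 fell by 0.30 ± 0.08, a call that ended without control 2 or 3 or without CGRP 1 or 2 (adjusted p = 0.094 without CGRP 2).

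Genes of cholesterol synthesis rose in 9 of 26 cases and fell in 1, with a median of 0.17, and rose in 10 and fell in 0 without CGRP 2. Without control 2 or control 3, 4 and 5 rose. SREBF1 (ENSG00000072310), a factor that drives lipid synthesis, rose from 44.0, 45.2 and 45.0 to 61.9, 63.7 and 62.8 CPM (0.49 ± 0.05, adjusted p = 1.4e-05) and passed in the 6 libraries alone. INSIG1, which holds that factor's precursor in the endoplasmic reticulum, rose by 0.44 ± 0.06, and mevalonate kinase (MVK) by 0.31. The gene that fell was CYP51A1 (-0.58 ± 0.15), which did not pass without CGRP 2 (adjusted p = 0.056) and was named after its values were seen.

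Glycolysis and glucose uptake genes changed in both directions, 3 up and 4 down of 23 (2 and 4 without CGRP 2, and 2 down when any control was left out). PFKFB4, which sets the level of an activator of phosphofructokinase, rose from 6.49, 7.27 and 6.77 to 11.9, 10.1 and 12.7 CPM (0.76 ± 0.09, adjusted p = 3.6e-05). The phosphofructokinases PFKM and PFKP fell by 0.20 ± 0.04 and 0.26 ± 0.06. HK2, hexokinase, read 307, 289 and 279 CPM in the controls and 239.9, 134 and 222 CPM with CGRP, a fall of 0.56 ± 0.15 (adjusted p = 0.023) and of 0.33 without CGRP 2, and the call was lost when any control was left out. SLC2A1, the glucose transporter, did not pass (-0.14 ± 0.08).

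**Figure D4:**
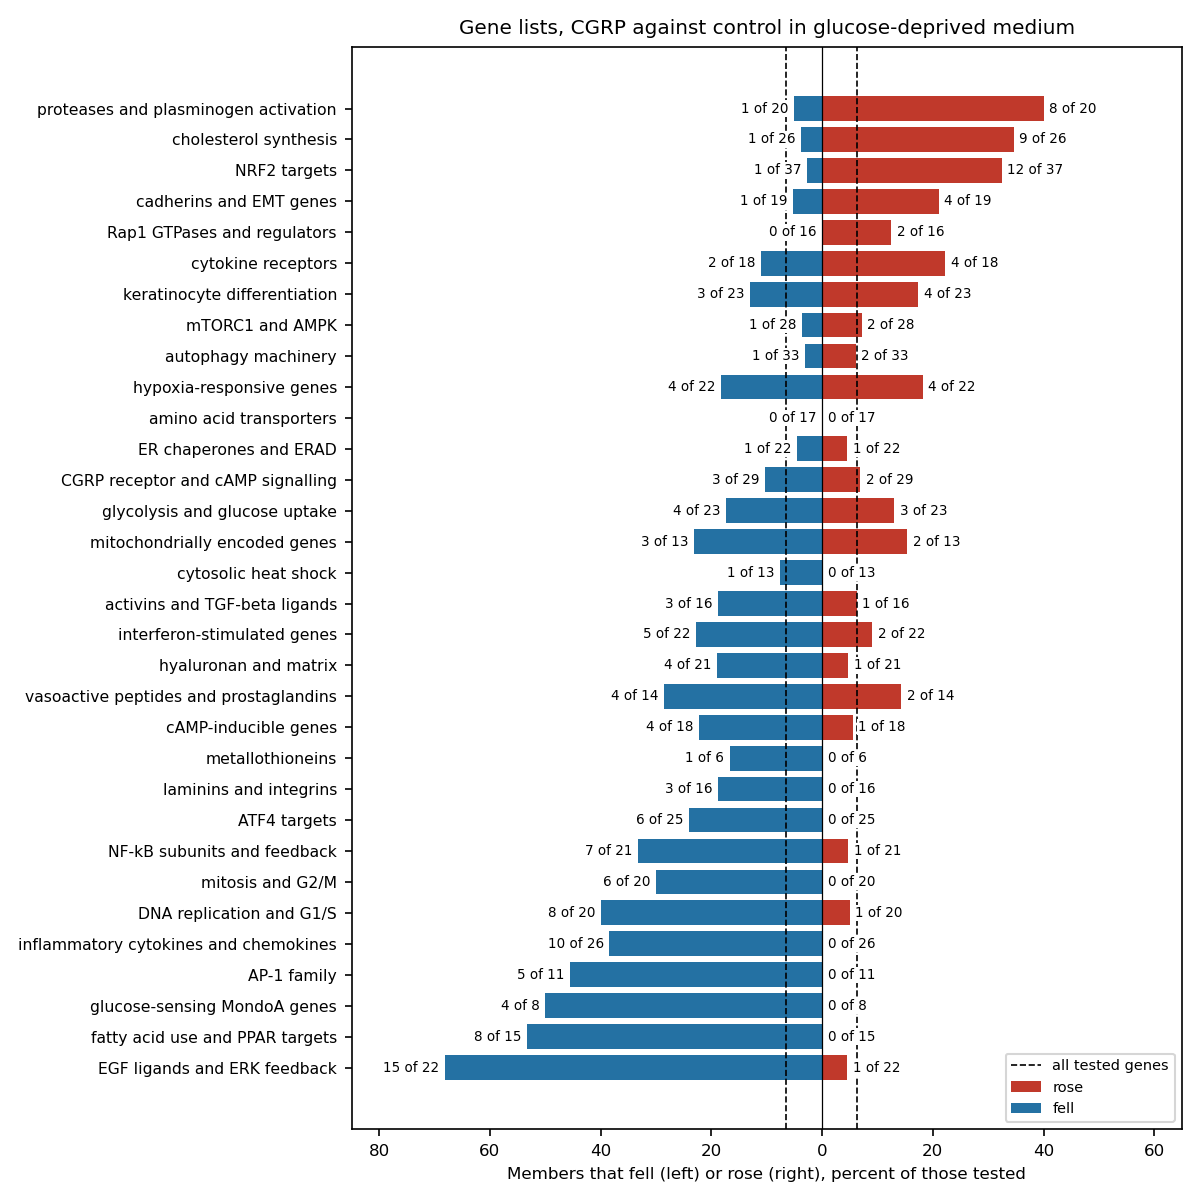
Percent of each list's tested genes that rose (right) or fell (left) with CGRP in glucose-deprived medium, for 32 lists ordered by the difference of the shares, with counts beside the bars. Dashed lines are the shares of all 18159 genes, 6.38% up and 6.58% down; the EGF and ERK list reaches 68.2% down and the NRF2 list 32.4% up.

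Genes of vasoactive peptides and prostaglandins split, with 2 rises and 4 falls of 14 (2 and 5 without CGRP 2). EDN2, an endothelin, which constricts vessels, fell from 16.4, 9.03 and 11.1 to 2.44, 0.462 and 2.96 CPM (-2.60 ± 0.32, adjusted p = 6.5e-05, and -2.16 without CGRP 2). EDN1 fell by 0.58 ± 0.09. PTGS1, the constitutive cyclooxygenase, rose from 41.7, 39.3 and 39.4 to 60.2, 51.1 and 63.0 CPM (0.53 ± 0.06), and PTGES, which makes prostaglandin E2, rose by 1.02 ± 0.15. PTGS2, the inducible cyclooxygenase named after its values were seen, fell from 16.6 ± 1.38 to 9.99 ± 1.79 CPM (SD, n = 3; -0.73 ± 0.13).

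Of 16 activin and TGF-beta ligand genes and their binding proteins 3 fell and 1 rose (4 and 1 without CGRP 2). INHBA, the subunit of activin A, read 59.0, 36.6 and 45.1 CPM in the controls and 23.5, 10.1 and 22.3 CPM with CGRP (-1.33 ± 0.23, adjusted p = 0.0012, and -1.03 without CGRP 2). TGFB2 was tighter, with 13.9, 14.0 and 14.2 CPM against 7.91, 5.59 and 7.97 CPM (-0.97 ± 0.13). LTBP3, which binds latent TGF-beta, rose by 0.41 ± 0.07. INHBE did not pass (24.2, 27.2 and 28.1 against 29.6, 34.0 and 29.3 CPM).

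Protease genes and their inhibitors rose in 8 of 20 cases (40%) and fell in 1, with 9 and 2 without CGRP 2. They included both sides of the balance. SERPINE2, a protease inhibitor, rose from 23.4, 22.9 and 23.1 to 31.4, 34.4 and 32.8 CPM (0.51 ± 0.07), and TIMP2, an inhibitor of matrix metalloproteases, from 21.7, 21.3 and 21.9 to 28.8, 28.2 and 28.8 CPM (0.40 ± 0.05). PLAU, the urokinase activator of plasminogen, rose by 0.25 ± 0.05, and the metalloproteases MMP1 and MMP10 by 0.59 ± 0.13 and 0.77 ± 0.15. ADAM8, a membrane protease, fell by 0.30 ± 0.05. PLAU and MMP1 were named after their values were seen.

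In the matrix, 4 of 21 genes fell and 1 rose (4 and 3 without CGRP 2). HAS3, a hyaluronan synthase, fell from 8.10, 4.41 and 6.36 to 2.58, 2.50 and 2.18 CPM (-1.38 ± 0.18). THBS1, thrombospondin, fell by 0.68 ± 0.12, and COL4A2, a chain of basement membrane collagen, by 0.49 ± 0.08. Of 16 laminin and integrin genes 3 fell and 0 rose (2 and 1 without CGRP 2), among them ITGB5, an integrin chain, which fell by 0.28 ± 0.05.

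Among 23 genes of keratinocyte differentiation 4 rose and 3 fell, and without CGRP 2 the balance turned, with 3 rises and 4 falls. The kallikreins KLK5, KLK6 and KLK7, proteases that loosen contacts in the cornified layer, rose by 0.79 ± 0.11, 0.66 ± 0.15 and 1.01 ± 0.15. KLK5 read 5.86, 6.07 and 6.32 CPM in the controls and 10.2, 11.3 and 10.1 CPM with CGRP. KRT6A, a keratin of activated epithelium, fell from 175, 163 and 169.5 to 123, 108 and 124 CPM (-0.51 ± 0.06). S100A4, a calcium-binding protein of motile cells and 1 of 4 rises among 19 cadherin and epithelial-mesenchymal transition genes, rose from 2.34, 1.59 and 2.11 to 5.16, 6.71 and 4.49 CPM (1.43 ± 0.18, adjusted p = 1.1e-04).

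Of 20 genes of mitosis 6 fell and 0 rose (9 and 0 without CGRP 2), and of 20 genes of DNA replication 8 fell and 1 rose, the same without CGRP 2. With any other library left out, 4 or 5 replication genes fell, and in the 6 libraries alone no gene of either list passed. KIF20A, a kinesin of cell division, fell from 21.2, 22.2 and 20.6 to 17.6, 16.3 and 15 CPM (-0.39 ± 0.06), CDC6, which loads the replication helicase, by 0.32 ± 0.05, and its helicase subunit MCM6 by 0.31 ± 0.05. CCND1, cyclin D1, fell from 317, 324 and 315 to 238, 198 and 243 CPM (-0.49 ± 0.06). MKI67, the marker of cycling cells, did not pass: its values were 116, 122 and 117 CPM against 112, 47.8 and 112 CPM, and the low library was CGRP 2.

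Of 25 ATF4 targets, which cells raise when amino acids run short, 6 fell and 0 rose (8 and 0 without CGRP 2, and 3 falls without control 1 or control 3). STC2 fell by 0.37 ± 0.06, PPP1R15A, a phosphatase subunit that restores translation, by 0.29 ± 0.05 and SESN2 by 0.29 ± 0.05. ASNS, asparagine synthetase, fell by 0.76 ± 0.22 (adjusted p = 0.031) but did not pass without CGRP 2 (0.058), without control 1 or without control 3. DDIT3, a death-promoting factor of the same response, read 249, 266 and 254 CPM against 269, 489 and 273 CPM and did not pass. HSPA5, the most abundant chaperone inside the endoplasmic reticulum, read 20564, 20837 and 20386 CPM against 18252, 22050 and 18448 CPM (-0.07 ± 0.07). It did not pass with CGRP 2 and passed as lower without it (-0.16, adjusted p = 0.047).

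Of 22 chaperone and degradation genes of that organelle 1 rose and 1 fell (1 and 3 without CGRP 2). Autophagy genes gave 2 rises and 1 fall of 33 (0 and 1 without CGRP 2), and mTORC1 and AMPK genes 2 rises and 1 fall of 28 (1 and 2 without it). Cytosolic heat shock genes gave 0 rises and 1 fall of 13 (1 and 1 without it), and amino acid transporters 0 and 0 of 17 (2 and 0 without CGRP 2). In the main fit none of these lists exceeded 7.14% rising or 7.69% falling, against 6.38% and 6.58% of all tested genes. CASTOR2, a gene of the mTORC1 pathway, rose from 2.14, 1.93 and 2.62 to 4.13, 3.93 and 3.87 CPM (0.83 ± 0.10). Rap1 regulators gave 2 rises of 16, RASGRP2 (1.12 ± 0.23) and SIPA1 (0.26 ± 0.05). Hypoxia-responsive genes split evenly, 4 up and 4 down of 22 (2 down when any control was left out), with P4HA1, which hydroxylates collagen, up by 0.36 ± 0.06 and EGLN3, an oxygen sensor, down by 0.47 ± 0.09. Interferon-stimulated genes gave 2 rises and 5 falls of 22 (1 and 3 without CGRP 2), with OAS1 up by 0.33 ± 0.07 and OASL down by 0.47 ± 0.08. Of 13 mitochondrially encoded genes 2 rose and 3 fell (2 and 4 without CGRP 2), among them MT-ND1 up by 0.33 ± 0.06 and MT-ND6 down by 0.37 ± 0.07. Of the 6 genes tested in the metallothionein list 1 fell, and none did without CGRP 2.

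Among the largest rises were genes that were low in the starved controls. RCSD1, a regulator of actin capping, rose from 0.329, 0.552 and 0.442 to 2.01, 1.39 and 1.69 CPM (1.94 ± 0.20). SYT8, a synaptotagmin, rose from 1.25, 1.28 and 1.19 to 4.13, 4.74 and 3.71 CPM (1.75 ± 0.16). FGF1, a fibroblast growth factor, rose from 1.05, 1.07 and 1.19 to 3.25, 3.16 and 2.96 CPM (1.5 ± 0.10), and PLEKHB1 from 3.52, 3.93 and 4.45 to 10.5, 12.6 and 10.9 CPM (1.51 ± 0.12). All 4 passed in the 6 libraries alone. That their groups did not overlap was a condition of naming them among the largest rises, so it adds nothing. RAB7B had 2 counts over the 3 controls and 16 over the 3 CGRP libraries, a ratio of 8.53 with a 95% counting interval of 2.01 to 76.5, and its call was lost without control 3 or without CGRP 1. Among the largest falls was AKAP12, a scaffold for protein kinase A, from 199.5, 179 and 177 to 96.6, 44.2 and 97.4 CPM (-1.22 ± 0.20, and -0.92 without CGRP 2).

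Markers of the line's own type were present: KRT5, TP63, CDH1 and the other 5 markers of squamous epithelium summed to 3344 to 3435 CPM of unscaled totals in the controls and 3078 to 3281 with CGRP. TP63, the master factor of squamous cells, fell from 581, 589.8 and 603 to 483, 361 and 479 CPM (-0.42 ± 0.09), the 1 of 8 that passed; without CGRP 2 KRT17 passed too (-0.32, adjusted p = 0.039). Of the other cell types the Schwann cell list stood highest, carried by MBP and NGFR, and the other lists were low. The 8 fibroblast markers summed to 10.0 to 10.9 CPM in the controls and 10.1 to 16.1 with CGRP, and 2 of the 4 tested rose, COL1A2 and PDGFRB, joined without CGRP 2 by COL1A1 (0.26, adjusted p = 0.032). COL3A1 had 0 counts in the controls and 13, 3 and 1 in CGRP 1, 2 and 3, and DCN 10, 0 and 1, so both were highest in CGRP 1; PDGFRA had 0 throughout. The call of COL1A2 (1.36 ± 0.41) was lost without CGRP 1 or without any control, and that of PDGFRB (0.69 ± 0.17) without control 1 or without CGRP 3.

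The 8 neuronal markers summed to 9.31 to 10.3 CPM in the controls and 14.1 to 14.5 with CGRP, with rises of NEFM, a neurofilament (1.31 ± 0.15), and TRPV1, the capsaicin receptor (0.42 ± 0.08), and with SNAP25 at 0. The 8 leukocyte markers summed to 7.35 to 7.87 and 7.96 to 11.7, with PTPRC, CD3E and MS4A1 among those at 0, and CD14 had 4 counts against 27, a ratio of 7.20 (2.51 to 28.3). CSF1R did not pass (0.37, adjusted p = 0.051) and passed without CGRP 2 (0.52, adjusted p = 8.7e-04). The 7 endothelial markers summed to 1.77 to 2.54 and 2.93 to 3.82, mostly from CDH5, which rose by 0.69 ± 0.13. VWF did not pass. PECAM1, KDR, TEK, CLDN5 and EMCN had at most 2 counts in any library, with PECAM1 and TEK at 0 with CGRP. The 6 Schwann cell markers summed to 77.1 to 81.2 and 69.2 to 97.1, with S100B among those at 0 and NGFR up by 0.56 ± 0.08. The part of these markers in the results was not tested. In bulk RNA, fewer cells expressing a gene and less RNA per cell cannot be told apart.

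The same 10 nM CGRP gave 787 passing genes in high-glucose medium (4.33%) and 2216 in 2-DG medium (12.2%), in libraries that the deprived comparison does not share, although 1 estimate of the spread serves all 18. Without CGRP 2 these counts were 1565 and 3853. Of the deprived calls 401 passed in the same direction in high glucose, 17.0% of the deprived and 51.0% of the high-glucose calls, and 24 passed in the opposite direction. With 2-DG, 733 were shared in direction, 31.1% of the deprived and 33.1% of the 2-DG calls, and 77 were opposite. In all 3 media 126 genes rose and 193 fell, and 1454 deprived calls passed in neither other medium. Without CGRP 2 the shared calls were 681 with high glucose (24.98% of the deprived and 43.5% of the high-glucose calls) and 1188 with 2-DG (43.6% and 30.8%), and 1278 passed in neither. Whether the CGRP effect differed was tested by the interaction. It passed for 282 genes (1.55%) against high glucose and 702 (3.87%) against 2-DG medium, and for 582 and 1002 without CGRP 2. Without both CGRP 2 and 2-DG control 2, it passed for 2500 and 3219. All the other 2-DG counts of this paragraph include 2-DG control 2, which also stood apart.

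IL1A, LIF and ETV5 fell in every medium, and CPT1A, ACADVL and HBEGF did too. IL1A changed by -1.01 in high glucose and -0.76 in 2-DG medium against -0.77 in deprived medium, and CPT1A by -0.77 and -0.78 against -0.95. HBEGF fell less in deprived medium (-0.72) than in 2-DG medium (-1.45; difference 0.73 ± 0.11, adjusted p = 0.0013), and its difference from high glucose did not pass (0.43 ± 0.11, adjusted p = 0.065) with CGRP 2 and passed without it (adjusted p = 0.024). CX3CL1 fell in every medium and most in deprived medium, at -1.36 against -0.57 in high glucose and -0.54 in 2-DG medium, and both differences passed (-0.79 ± 0.07, adjusted p = 1.8e-05, and -0.82 ± 0.07, adjusted p = 4.9e-06). ERRFI1, with -1.07 against -0.38 and -0.42, gave the same pattern (-0.70 ± 0.13 and -0.65 ± 0.13). Its control level was higher in the starved cells, at a mean of 580.1 CPM against 77.0 CPM in high glucose.

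IL6 differed more. Its control mean was 38.6 CPM in deprived medium and 5.01 and 4.52 CPM in high-glucose and 2-DG medium, where CGRP gave -0.43 (adjusted p = 0.074) and 0.16 (adjusted p = 0.50). The differences from the deprived effect were -0.91 ± 0.16 (adjusted p = 0.0087) and -1.50 ± 0.16 (adjusted p = 8.8e-05). The NRF2 targets AKR1C2 and HMOX1 rose in deprived medium and did not pass in the others: AKR1C2 gave -0.07 and 0.07, with differences of 1.08 ± 0.12 (adjusted p = 2.3e-04) and 0.94 ± 0.12 (adjusted p = 3.1e-04), and HMOX1 gave 0.05 and 0.12, with differences of 0.77 ± 0.12 and 0.71 ± 0.12. The other 2 described above passed in 1 more medium each. GPX2 gave 0.08 in high glucose and 0.38 (adjusted p = 0.015) in 2-DG medium against 1.13. ALDH3A1 gave 0.31 (adjusted p = 0.023) in high glucose and 0.13 in 2-DG medium against 0.92. SREBF1 rose in every medium, by 0.39 and 0.30 against 0.49, and neither difference passed (0.10 ± 0.07 and 0.19 ± 0.07).

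Some genes had effects of opposite sign. TXNIP, which fell by 0.34 in deprived medium, rose by 0.35 in high glucose and 0.33 with 2-DG (differences -0.68 ± 0.09, adjusted p = 9.0e-04, and -0.66 ± 0.09, adjusted p = 5.6e-04). ARRDC3 differed by -1.22 ± 0.11 and -1.28 ± 0.11, with 0.24 (adjusted p = 0.098) in high glucose and 0.30 (adjusted p = 0.015) in 2-DG medium. STC1, a secreted glycoprotein, fell from 2.67, 2.86 and 2.14 to 1.52, 0.617 and 1.11 CPM in deprived medium and rose by 0.73 and 0.87 in the others, from control means of 18.4 and 18.2 CPM. EDN2, at -2.60 in deprived medium, gave 0.10 in high glucose and 1.30 with 2-DG (adjusted p = 0.0074). KIF20A fell by 0.39 in deprived medium and rose by 0.55 with 2-DG (difference -0.94 ± 0.08). INHBE ran the other way round, with no passing change in deprived medium and -2.14 and -2.81 in the others, from control means of 1.35 and 2.36 CPM against 26.5 CPM.

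**Figure D5:**
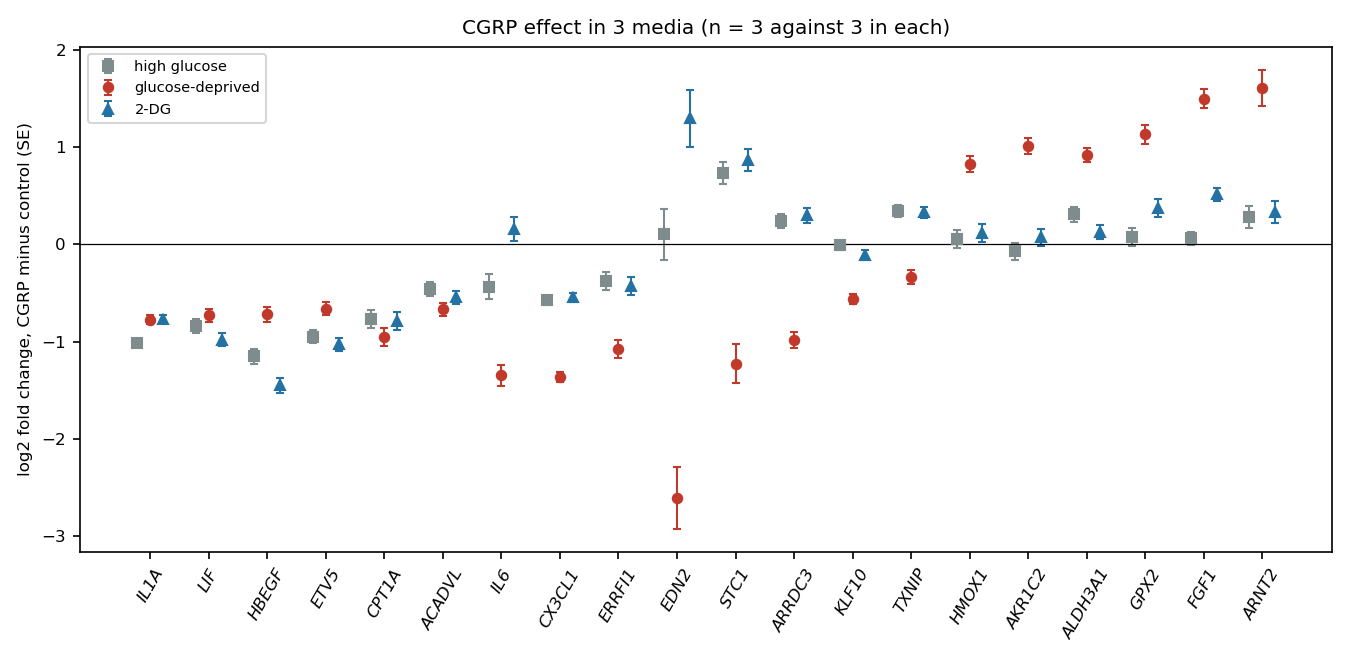
Log2 fold change of CGRP against control with its standard error for 20 genes in glucose-deprived, high-glucose and 2-DG medium. IL1A, LIF, HBEGF, ETV5, CPT1A and ACADVL lie below 0 in all 3 media; IL6 lies at -1.35, -0.43 and 0.16, and STC1, ARRDC3 and TXNIP lie below 0 in deprived medium only.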

How the data were processed

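Total RNA of Cal27 cultures, extracted with Trizol and with an integrity number above 8.0 per the labels' protocols, was sequenced on Illumina libraries. The authors deposited 1 table of raw counts per gene and library for 60683 Ensembl IDs, per the file headers. Reads were aligned with HISAT2 2.0.4, per the submitters' processing notes, which name both hg19 and GRCh38. Which build gave the counts is therefore not settled. The only positions printed are those of the promoter stretches, which come from the RefSeq windows on GRCh38.p14. The counting program, its annotation and its strand setting stay not given in the sources used here, and values of near-identical or overlapping genes are uncertain. A name table held 60370 of the IDs, 42013 of them with a symbol other than the ID.

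From the counts, filterByExpr (minimum count 10, total 15) left 18159 genes. Library sizes were scaled by TMM, and edgeR 4.0.16 under R 4.3.3 gave the main test (quasi-likelihood F test, robust, 6 groups, 12 residual degrees of freedom, Benjamini-Hochberg). The spread between libraries, as edgeR's common coefficient of biological variation, was 9.44%. The main p-values rest on a spread estimated from all 18 libraries, which assumes that the 6 groups spread alike. Fitted alone, the 6 deprived libraries gave a larger common coefficient, 13.3%, on 4 residual degrees of freedom. That fit includes the library that stands apart. The main p-values may therefore be too small for the deprived comparison. Counting intervals cover counting error only. Transcript lengths (GENCODE 29, longest transcript) were known for 98.6% of tested genes. The test was also run on simulated counts, with 200 of 18159 genes changed. It recovered 62% of 2-fold rises and 76% of 2-fold falls, and 58% and 60% of 1.5-fold rises and falls. Of its 134 calls 6 were false. No simulated library stood apart or departed by transcript length, so the run does not show how the test behaves with a library like CGRP 2.

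Members, the 38 gene lists and the naming rule were chosen with earlier results of these data known. The rule names 10 genes each way, by the size of their change, that passed with and without CGRP 2 at an average log2 CPM of at least 1 and without overlap, up to 4 passing members of each list by adjusted p, the 4 largest differences each way between media, 15 fixed genes, and markers of at least 1 CPM or that passed. Not all are described, and a few are not reported here.

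Deviations from the group means correlated at -0.02, -0.05 and -0.02 between deprived control and CGRP libraries of the same number. CGRP 2 shifts the mean from which its mates deviate, so these values cannot decide whether replicate numbers pair the samples. Alternatives were RLE size factors, total counts, DESeq2 1.42.0, no filter, a filter at more than 1 CPM in 3 libraries with a mean over 2 CPM (called stricter), only the groups compared, a replicate block, voom with quality weights (limma 3.58.1), leaving out each deprived library or both libraries that stand apart, and the 6 libraries without CGRP 2. A transcript length offset was added after seeing the data.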

Additional observations from a re-analysis of the deposited data

Results flagged for a closer look

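The CGRP effect in deprived medium, minus that in another medium, passed the interaction test (edgeR, adjusted p under 0.05) for the named genes given here as log2 differences. A value above 0 means that the CGRP effect was more positive in deprived medium. All of them rest on the 6 deprived libraries, CGRP 2 included, and the 2 sets of differences share those libraries. Those against 2-DG medium also rest on 2-DG control 2, the other library that stood apart. Genes of ribosomal proteins took 7.43% of its counts, against 5.35% and 5.62% in 2-DG controls 1 and 3. No explanation was tested.

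Against high glucose the effect was more positive for INHBE, an inhibin subunit, at 2.37, and for FSD1 and FLRT1 at 1.51 each, for FGF1 at 1.43, ARNT2 at 1.32, PLEKHB1 at 1.01 and SYT8 at 0.863. The NRF2 targets AKR1C2, GPX2, HMOX1 and ALDH3A1 differed by 1.08, 1.05, 0.771 and 0.61. It was more negative for EDN2 at -2.71, STC1 at -1.96, TCAF2 at -1.65 and ANGPTL4 at -1.38. The MondoA genes ARRDC3, TXNIP, KLF10 and ARRDC4 differed by -1.22, -0.681, -0.56 and -0.506, and the cytokine genes IL6 and CX3CL1 by -0.912 and -0.788.

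Against 2-DG medium the effect was more positive for INHBE at 3.03, RAB7B at 2.81, AGR2, a disulfide isomerase, at 1.87, FLRT1 at 1.73, ARNT2 at 1.27, RBBP8NL at 1.24, SYT8 at 1.13, PLEKHB1 at 1.06, FGF1 at 0.981, FSD1 at 0.977 and HSPA5 at 0.63. The NRF2 targets AKR1C2, ALDH3A1, GPX2 and HMOX1 differed by 0.938, 0.791, 0.756 and 0.71. It was more negative for EDN2 at -3.9, SLC28A3, a nucleoside transporter, at -2.33, STC1 at -2.1, CLCA2 at -2.03, IL6 at -1.5, TCAF2 at -1.5, ARRDC3 at -1.28, AKAP12 at -1.24, ANGPTL4 at -1.12, CX3CL1 at -0.821, TXNIP at -0.664 and KLF10 at -0.456. AGR2 rose from 201, 216 and 215 to 308, 478 and 307 CPM in deprived medium and fell in 2-DG medium from a mean of 44.9 to 21.2 CPM. FLRT1 rose by 0.39 in deprived medium and fell by 1.11 in high glucose, from means of 10.3 and 0.680 CPM in the controls; the deprived call was lost without CGRP 3 or without any control. CLCA2 did not pass in deprived medium itself, at means of 0.257 and 0.105 CPM. RAB7B had 2 counts over the deprived controls and 16 over the CGRP libraries. Both were too low to be tested in the 6 deprived libraries alone and were tested through their counts in the other media, so the sizes of their differences are uncertain.

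Some of these differences lost their call when 1 deprived library was left out. Against high glucose these were SYT8 (without any control, CGRP 1 or CGRP 2) and ANGPTL4 (without control 1). Against 2-DG medium they were RAB7B (without any control, CGRP 1 or CGRP 3), RBBP8NL (without any control or CGRP 2), ANGPTL4 (without control 1, control 3, CGRP 2 or CGRP 3), CLCA2 (without control 1, CGRP 1 or CGRP 2), AKAP12 (without control 1) and FSD1 (without control 2). The other differences kept theirs.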

How the results depend on the processing

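Of 2354 changed genes the count stayed within 1.5 times under RLE, DESeq2, the replicate block (2380) and without CGRP 2 (2726). It was 1463 without a filter, 141 with only the groups compared, 5996 with voom, 5307 without the 2 libraries that stand apart, 6215 with only the groups compared without CGRP 2 and 4310 with the length offset. Leaving out 1 library gave 1282 to 2726, lowest without a control. Rises were 761, 93, 2491, 2240 and 2945 in the first 5 of these settings and 692 to 736 without a control and 1287 without CGRP 2; falls were 702, 48, 3505, 3067, 3270 and, with the length offset, 2589, with 750 under total counts and 590 to 646 without a control and 1439 without CGRP 2. Rises made up 49.2% of calls, but 66.2% (1467 against 750) under total counts, 59.3% with the stricter filter, 66.0% with only the groups compared and 39.9% with the length offset. At least 2-fold, 70, 40 and 339 rose and 15, 10 and 89 fell with the stricter filter, only the groups compared and voom. Differences from high glucose, 282, became 519 with DESeq2, 163 without a filter, 164, 2680 and 2500 with only the groups compared, voom and without the 2 libraries, 2952 with only the groups compared without CGRP 2 and 762 with the length offset, and 173 to 582 when 1 library was left out. Differences from 2-DG, 702, became 1081, 430, 211, 3261 and 3219 in the first 5 of these and 2200 with the length offset, and 438 to 1002 when 1 library was left out. DSG3, PKP1 and MBP, which did not pass, passed with the opposite sign under some settings: DSG3 at 0.109 with voom, 0.128 without the 2 libraries and 0.144 in the 6 libraries without CGRP 2, PKP1 at 0.125 and MBP at 0.0994 in the last. Without CGRP 2 these 3 turned sign to 0.128, 0.108 and 0.0825 and did not pass, and KRT14, EPCAM and RAMP1 turned sign too and passed in neither fit. Of 156 named genes 132 passed, 35 of them under every alternative, and 66 more were lost only in the 6-library fit. The cause of these moves was not tested, beyond the fewer samples or genes that a setting itself has. Whether the replicate numbers pair the samples was not settled.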
